A study of Rattus norvegicus with 6 samples.

Results

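The small structural RNAs of the lung were read from a table of linear transcripts in control and pulmonary fibrosis (PF) model rats. These genes carry no gene symbol and are named only by the accession of their family in Rfam, a database that groups non-coding RNAs by shared sequence and structure. Every Ensembl transcript whose gene name was an Rfam accession was taken, except the copies of 7SK. This gave 1703 small RNA genes of 232 families among 70376 transcripts, of which 28875 have an Ensembl identifier. All 1703 are single-exon genes of 35 to 428 bases (median 119 bases), and 97 families hold a single copy. The families were sorted into 645 spliceosomal snRNA genes, 571 H/ACA box snoRNAs, 199 C/D box snoRNAs, 106 rRNA genes, 40 small Cajal body RNAs, 21 copies of 7SL RNA, 13 of Y RNA and 108 others. Of the 232 accessions, 203 were given a family name.

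The rats were Sprague-Dawley animals of 7 weeks. The 3 control rats were given saline into the trachea and the 3 model rats a single intratracheal dose of bleomycin, a DNA-breaking drug, at 7 mg/kg, and lungs were taken on day 28. Each rat gave 1 library of RNA from a lung specimen, depleted of rRNA, so every level is an average over all cells of the specimen. In such bulk samples, fewer cells of a type and less RNA per cell cannot be told apart. Levels are FPKM, the number of fragments scaled to the length of the transcript and to the mapped fragments of the library. The coverage of all transcripts added up to between 5.37 and 6.17 Gb per sample, and the small RNA genes held between 3.12% and 5.08% of it. Apart from Pecam1, for which no value was obtained, the lung markers fixed for a check were present in all samples. Sftpc of alveolar type 2 cells was between 2410 and 4146 FPKM and Scgb1a1 of airway club cells between 4050 and 7677 FPKM. One library stood apart by length: model 3 was low for the shortest RNAs, and control 3 was the highest for them. The red cell gene Hbb ranged from 212 to 576 FPKM over the 6 samples, and no value was obtained for Hba1. The collagen gene Col1a1 was at 62.3, 66.4 and 60.2 FPKM in the controls and at 60.7, 71.6 and 84.9 FPKM in the models. Its log2 difference was 0.19 (limma, unadjusted p = 0.208, adjusted p = 0.950). That of Col3a1 was 0.30 (limma, unadjusted p = 0.0513, adjusted p = 0.950).

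Small nuclear RNAs are the RNA core of the spliceosome. U1 pairs with the 5′ splice site and U2 with the branch point, while U4, U5 and U6 join as a tri-snRNP before catalysis. U11, U12, U4atac and U6atac do the same work for a rare class of introns, and U7 guides the 3′ end processing of histone mRNAs. C/D box snoRNAs guide 2′-O-methylation and H/ACA box snoRNAs guide pseudouridylation, mostly of rRNA, and small Cajal body RNAs guide both kinds of change on the snRNAs. Most mammalian snoRNAs are cut from introns of host genes. 7SL RNA is the scaffold of the signal recognition particle, Y RNAs bind the Ro60 protein, and RNase MRP and RNase P are ribozymes that process rRNA and tRNA precursors. The short 5S and 5.8S rRNAs belong to the large ribosomal subunit.

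Some guide RNAs also give rise to miRNAs. The annotation described 4 of the genes as miRNA hosts, and RefSeq (GRCr8) held mature sequences for 2 of them, a SCARNA15 copy and a SNORA58 copy. They are shown because they are the only members with a sequence in the references used here. The capitals mark the seed, bases 2 to 8, and no seed is shared.
miR-1839-5p, chr1:144893859-144893880, plus strand: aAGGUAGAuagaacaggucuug
miR-1839-3p, chr1:144893898-144893919, plus strand: aGACCUACuuaucuaccaacag
miR-3068-5p, chr6:112811918-112811942, minus strand: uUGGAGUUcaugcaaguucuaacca
miR-3068-3p, chr6:112811880-112811901, minus strand: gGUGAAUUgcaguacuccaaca
The host of miR-1839, a SCARNA15 copy, was at 0.15, 0 and 0.16 FPKM in the controls and at 0.277, 0 and 0.18 FPKM in the model samples. The host of miR-3068, a SNORA58 copy inside Alkbh1, was at 0.4, 0.728 and 0.297 FPKM in the controls and at 0.45, 0.456 and 0.615 FPKM in the models. Both genes had means under 1 FPKM in each group, and their groups overlapped. A second SCARNA15 copy, inside Khdc4, had a mean of 28.2 FPKM. The other members described as miRNA hosts, SNORD79 (miR-5117) and SNORD59 (miR-677), had group means between 2.24 and 4.71 FPKM.

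A few families carried nearly all of the signal. Added up, the small RNA genes reached 211906, 190253 and 155442 FPKM in the controls and 203630.0, 127583 and 142080.0 FPKM in the models, which was between 24.1% and 38.1% of the FPKM of all transcripts. U2, U1 and 7SL RNA alone held 89.1% of this sum, and RNase MRP RNA brought it to 93.9%. The 20 highest genes held 91.5%. The median gene, in contrast, had a mean of 0.342 FPKM, where the median of all transcripts was 1.48 FPKM. A mean of 1 FPKM was reached by 550 genes (32.3%), 10 FPKM by 106, 100 FPKM by 42 and 1000 FPKM by 23. Every gene was above 0 in at least 1 sample, 874 were above 0 in all 6, and 278 in 1 sample only.

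**Figure D1:**
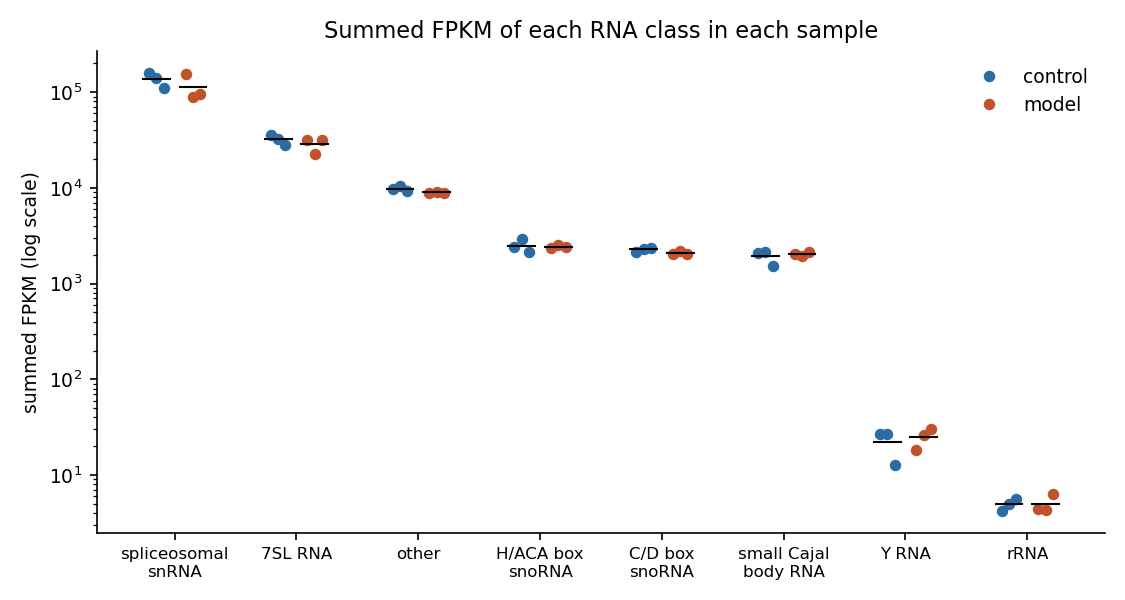
Summed FPKM of each class of small RNA genes in each sample (y axis, log scale), with 3 control and 3 model points per class and a black line at each group mean. The classes are ordered by their control mean, from spliceosomal snRNA (137153 FPKM) to rRNA (4.97 FPKM), and the groups overlap in every class except the one named other.

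The highest levels were seen among the longer RNAs only, while the median level did not rise steadily with length. Medians were 0.754 FPKM under 80 bases, 0.160 FPKM from 80 to under 120 bases and 0.477 FPKM from 120 to under 150 bases. From 150 to under 200 bases the median was 0.601 FPKM, and at 200 bases or more 6.83 FPKM. No gene shorter than 129 bases had a mean of 100 FPKM and none shorter than 141 bases had a mean of 1000 FPKM. The 164 genes under 80 bases held 0.147% of the summed FPKM and the 705 genes of 80 bases to under 120 bases held 0.418%. Those of 150 to under 200 bases, which include U1 and U2, held 71.6%, and those of 200 bases or more held 24.8%. U6 shows the contrast within one complex. Its 393 copies, with a median length of 106 bases, added up to 302 ± 15.3 FPKM in the controls (SD, n = 3), where U4 with 50 copies reached 2222 ± 626 FPKM (SD, n = 3). U5, with 11 copies and a median length of 116 bases, summed to 32.0 ± 11.2 FPKM (SD, n = 3). FPKM is a level per length, but of the genes 85.6% are shorter than 1 read, and the part of fragment length or library size selection in these levels was not tested.

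**Figure D2:**
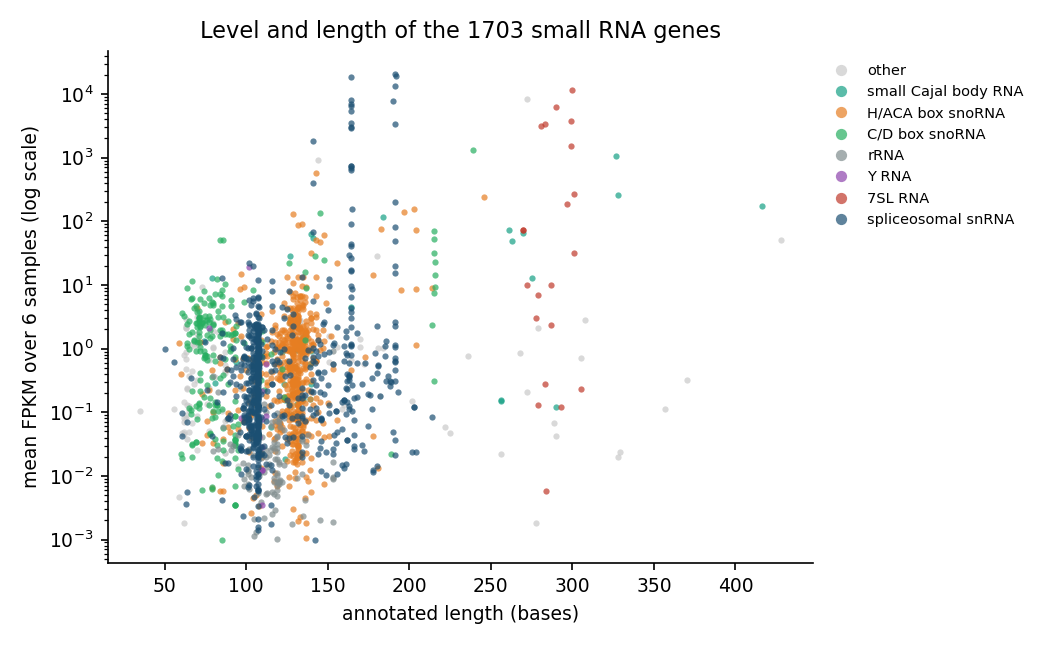
Mean FPKM over the 6 samples (y axis, log scale) against annotated length in bases (x axis) for the 1703 genes, coloured by class, with means under 0.001 FPKM drawn at 0.001. The points above 1000 FPKM all lie at 141 bases or more.

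Position relative to other genes was recorded as well. Of the 1703 genes, 558 (32.8%) lay inside a spliced Ensembl gene on the same strand. This was the case for 48.7% of C/D box and 34.3% of H/ACA box snoRNAs and for 25.3% of spliceosomal snRNA genes. Genes whose host has no such annotation count as outside, so the shares and medians depend on the annotation. The snoRNA clusters at chr13:78852741-78855688 and chr1:224921637-224923957, for example, had no host by this rule. Of 30 snoRNA host genes listed beforehand, 19 were found. In all 3 classes the genes inside a host had the higher median level. The medians were 1.56 FPKM inside and 0.295 FPKM outside for C/D box snoRNAs, and 1.10 FPKM inside and 0.271 FPKM outside for H/ACA box snoRNAs. Among the 70 genes with a mean of at least 5 FPKM inside a host, 52 had a higher FPKM than the host, by a median ratio of 3.93 over all 70. The floor of 5 FPKM was set on the small RNA genes only, which by itself raises the count and the ratio. Neither therefore shows that small RNA genes in general exceed their hosts. The 70 also include genes other than snoRNAs, such as a U1 copy in Tex14, a host with a mean of 0.031 FPKM. SNORD17 was at 189 times the FPKM of its host Snx5, whereas SNORA73 was close to its host Rpsa, a ribosomal protein gene, at a ratio of 1.10.

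The first question was whether whole classes of small RNA differed between model and control lungs. An exact two-sided permutation test of 3 against 3 cannot go below p = 0.1, so no class sum could pass a threshold of 0.05. The spliceosomal snRNAs summed to 137153 ± 24196 FPKM in the controls and 113424 ± 37428 FPKM in the models (SD, n = 3 each), a log2 ratio of -0.27 (exact permutation p = 0.3). The H/ACA box snoRNAs stood at 2499 ± 395 FPKM in the controls and 2426 ± 79.1 FPKM in the models (SD, n = 3 each; exact permutation p = 0.8). The C/D box snoRNAs were at 2281 ± 121 and 2085 ± 91.5 FPKM (SD, n = 3 each; exact permutation p = 0.2) and the small Cajal body RNAs at 1933 ± 342 and 2051 ± 95.4 FPKM (SD, n = 3 each; exact permutation p = 0.9). The groups separated only in the class of other RNAs, which was lower in all 3 models, at the smallest p of 0.1. RNase MRP RNA makes up most of that class, and without it the class was higher in the models by a log2 ratio of 0.26 (exact permutation p = 0.4).

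U2, the highest family, was at 95632, 62706 and 63056 FPKM in the controls and at 82727, 42027 and 40502 FPKM in the models. Models 2 and 3 were the lowest and control 1 the highest, and the groups overlapped (log2 ratio -0.42, exact permutation p = 0.3). U1 was at 61321, 74109.6 and 46765 FPKM in the controls and 71135, 44208 and 51294 FPKM in the models, with control 3 as low as models 2 and 3 (log2 ratio -0.13, exact permutation p = 0.7). U4 was at 2602, 2563 and 1499.7 FPKM in the controls and 2280.3, 2515 and 2479.7 FPKM in the models, where control 3 alone was low. U6 had the narrowest spread of the 5, from 261 to 320.0 FPKM. U5 lay between 23.3 and 28.1 FPKM in 5 samples and at 44.6 FPKM in control 3.

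Single copies of the same snRNA gene moved far more between animals than the family did. The U2 copy on chromosome 10 (chr10:89562040-89562230, minus strand) was at 32988, 21476 and 10986 FPKM in the controls and at 8281, 449 and 5109.9 FPKM in the models. All 3 models were below all 3 controls at this copy. The copy on chromosome 3 (chr3:8964820-8965010, minus strand) was highest in model 1 at 40546 FPKM and lowest in control 3 at 4632 FPKM, and its groups overlapped, with model 3 at 9122 FPKM. A further copy on chromosome 7 (chr7:38426698-38426888, minus strand) reached 15988 FPKM in control 2 and stayed at 475 to 1636 FPKM elsewhere. Over the 5 copies with at least 1% of the U2 sum, the median coefficient of variation over the 6 samples was 87.1%, where that of the sum was 33.9%. For U1 the values were 53.7% over 12 copies and 21.8% for the sum, and for 7SL RNA 42.5% over 6 copies and 14.7% for the sum. The share of the U2 sum taken by the chromosome 3 copy ranged from 7.35% to 73.9%. These copies are nearly alike in length, and how the authors placed reads that match several copies is not given in the sources used here, so the level of a single copy is uncertain.

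**Figure D3:**
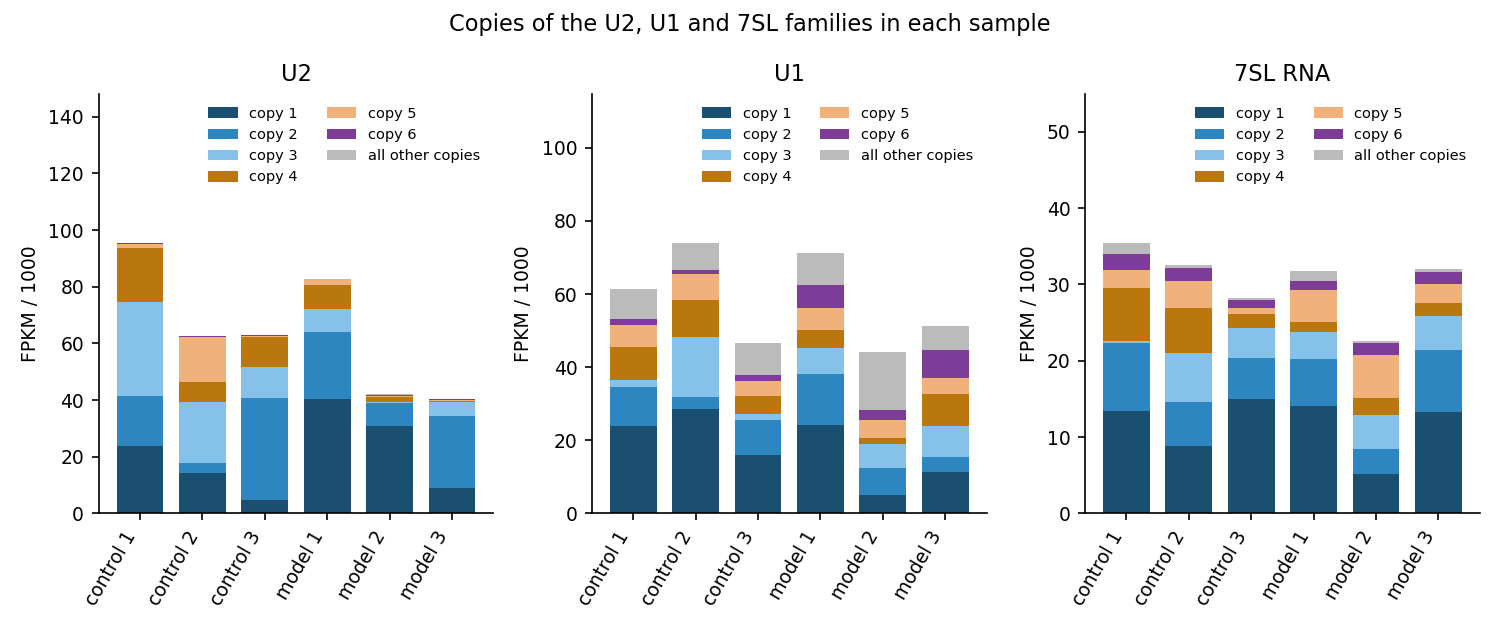
FPKM divided by 1000 (y axis) of the 6 highest copies of U2, U1 and 7SL RNA in each of the 6 samples (x axis), stacked, with all other copies in grey. The make-up of each bar changes from sample to sample; the U2 copy on chromosome 3 (copy 1) forms from 7.35% to 73.9% of the U2 bar.

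Assembled transcripts with the same family name took part of the signal at some of these places. A spliced assembled transcript starting at the U2 gene on chromosome 10 was at 15971 FPKM in control 3 and at 0 in the other samples. Further assembled forms at that gene were at 10419.5 FPKM in model 1 and 5411 FPKM in model 3. At the highest 7SL gene an assembled antisense transcript was at 10006 FPKM in control 2, 12704 FPKM in model 2 and 3199 FPKM in model 3. With all assembled transcripts of the same name added, U2 came to 95635, 62709 and 79029.7 FPKM in the controls and 93148, 42809 and 47514 FPKM in the models (log2 ratio -0.37). U1 then had a log2 ratio of -0.05 and 7SL RNA one of -0.18, and the groups still overlapped in each.

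Of the 116 U1 copies, 10 lie in 2 groups of neighbouring genes, where neighbours were high in different samples. The 5 copies within chr6:75590195-75622959 summed to 31772, 50426 and 23840.2 FPKM in the controls and 42868, 27737 and 31382 FPKM in the models. Inside this group, the copy at chr6:75590195-75590358 was at 11488 FPKM in model 2 and at 3795 FPKM or less elsewhere. The copy at chr6:75614240-75614403, the highest U1 copy by mean, was at 5106 FPKM in model 2 and at 11459 FPKM or more elsewhere. The 5 copies within chr2:198524137-198623922 summed to between 9667 and 20300.4 FPKM. The 2 adjacent U4 genes on chromosome 12 (chr12:46863204-46863344 and chr12:46862390-46862530, both on the minus strand) had coefficients of variation of 19.8% and 20.3%, and the first held between 74.2% and 81.0% of the U4 sum in every sample. Another U4 copy, on chromosome 5 (chr5:129142661-129142801, minus strand) was at 279 FPKM in model 2 and at 5.61 to 56.2 FPKM elsewhere, a coefficient of variation of 154%.

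The minor spliceosomal RNAs were low in every sample. U12 was at 21.7, 27.1 and 27.5 FPKM in the controls and 20.7, 21.5 and 16.1 FPKM in the models, and all 3 models were below the controls (log2 ratio -0.39, exact permutation p = 0.1, the smallest the test can give). U11 ranged from 10.4 to 16.3 FPKM, U6atac from 15.8 to 24.7 FPKM and U4atac from 1.72 to 6.95 FPKM, each with overlapping groups. U7 lay between 10.8 and 20.3 FPKM.

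7SL RNA reached 35490.2, 32579 and 28286 FPKM in the controls and 31756, 22601 and 31999 FPKM in the models (log2 ratio -0.16, exact permutation p = 0.4). Only model 2 lay outside the range of the controls. Its 2 highest copies were on chromosome 6 (chr6:91680229-91680528) and chromosome 7 (chr7:71615114-71615403), and 4 copies with at least 10 FPKM in a sample were at 0 in the other 5 samples. The Y RNAs, at 12.8 to 30.7 FPKM in sum over 13 copies, were lowest in control 3. Of the rRNAs, 98 copies of 5S summed to between 3.03 and 4.04 FPKM and 8 copies of 5.8S to between 0.933 and 2.24 FPKM, in libraries from which rRNA had been removed. The groups overlapped for both.

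RNase MRP RNA, encoded by a single gene (chr5:58994682-58994953, minus strand), was the highest of the single-copy RNAs and varied little. It was at 8417, 9613 and 8577 FPKM in the controls and at 7588, 7919.8 and 7832 FPKM in the models. Every model was below every control, by a log2 ratio of -0.19, and the exact permutation p of 0.1 is the smallest possible. In limma with a trend its standard error was 2.77 on the log2 scale (adjusted p = 0.998), and without the trend 0.095 (unadjusted p = 0.10). The fit with a trend draws the spread of a gene toward that of other transcripts at its level. Vault RNA, the RNA of the vault particle, was at 1223, 697 and 625 FPKM in the controls and 1114, 1050.1 and 835 FPKM in the models, with overlapping groups. Telomerase RNA was near the limit of what the table holds, at 0.119 to 1.61 FPKM.

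The thresholds for a call were an unadjusted p of at most 0.05 and at least a 2-fold ratio of group means. In the fit with a trend, which could hardly call the highest genes, only RNase P RNA passed both above 10 FPKM. Its highest copy (chr1:246973112-246973539, plus strand, inside Slc1a1) was at 6.39, 70.3 and 5.95 FPKM in the controls and at 70.2, 73.7 and 82.2 FPKM in the models. Control 2 was level with the models, and controls 1 and 3 were low. The log2 ratio was 1.45 (limma, unadjusted p = 0.0493, adjusted p = 0.945). The call was lost when any sample other than control 2 was left out (unadjusted limma p up to 0.142), and without control 2 the unadjusted limma p was 1.48e-06. It was also lost without the trend (limma, unadjusted p = 0.0559). Its host Slc1a1, a glutamate transporter gene, did not pass the test (limma, unadjusted p = 0.263).

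Other single-copy genes showed that 1 sample can stand apart at a single gene. SNORA14, inside Tomm20, was at 124, 139 and 2.34 FPKM in the controls and at 93.0, 95.2 and 96.7 FPKM in the models, so control 3 alone was low. SCARNA17 was at 8.79 FPKM in model 3 and between 31.6 and 85.5 FPKM elsewhere. These examples were picked with their values in view. Among the 14 single-copy families with a mean of at least 10 FPKM, the median coefficient of variation was 15.6%, against 29.7% over 92 genes of multi-copy families at that level.

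Of the snoRNAs, the highest C/D box RNA was SNORD17, at 1232, 1419 and 1399 FPKM in the controls and 1198, 1418 and 1133 FPKM in the models. SNORD15, with 2 copies inside Rps3, summed to 118 to 188 FPKM. Among the H/ACA box RNAs, SNORA48, whose highest copy lies in Eif4a1, was at 633, 944 and 414 FPKM in the controls and 551, 555 and 645 FPKM in the models. SNORA73, whose highest copy lies in Rpsa, was at 230.4 ± 47.6 FPKM in the controls and 272 ± 29.5 FPKM in the models (SD, n = 3 each; exact permutation p = 0.3). SNORA53 ranged from 223 to 256 FPKM and SNORA17, the family with most snoRNA copies (182), from 108 to 139 FPKM. Of the small Cajal body RNAs, SCARNA10 was the steadiest at 244 to 274 FPKM, a coefficient of variation of 4.07%. SCARNA7 was at 1182, 1129 and 686 FPKM in the controls and 1151, 1011 and 1224 FPKM in the models, low in control 3 only, and SCARNA2 had a log2 ratio of -0.29 (exact permutation p = 0.2).

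U3, a C/D box RNA that acts in the first cleavages of the rRNA precursor rather than as a methylation guide, is listed under 2 Rfam accessions at 4 places. Of the 20 pairs of small RNA genes that overlap on one strand, 4 are U3 pairs. At chr10:74765385 the entry of the first accession was at 65.7, 2.17 and 71.9 FPKM in the controls while that of the second was at 0.134, 81.8 and 0.975 FPKM, so the signal of control 2 was listed under the second name. Added up over both accessions, U3 was at 209, 233 and 246 FPKM in the controls and at 163, 123 and 304 FPKM in the models, with overlapping groups (exact permutation p = 0.6). At the gene at chr10:74757884 both entries together gave 89.4, 112 and 97.2 FPKM in the controls and 53.9, 58.5 and 73.3 FPKM in the models. That gene was lower in every model than in any control (log2 ratio -0.69, exact permutation p = 0.1, the smallest possible). The neighbouring gene at chr10:74778189 was at 140.5 FPKM in model 3 and 12.5 FPKM in model 2, so the neighbours did not move together. U8, at 15.6 to 20.5 FPKM in 5 samples, was at 8.19 FPKM in model 3.

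Samples differed by the length of the RNA. For the 537 genes above 0 in all samples and with a mean of at least 1 FPKM, each sample was set against the median of the 6. For genes of up to 80 bases (80 genes) the median log2 difference was -0.58 in model 3, and it ranged from -0.16 to 0.27 in the other 5 samples, with control 3 the highest. Over 200 bases (35 genes), model 3 was at -0.0050 and the 6 samples ranged from -0.04 to 0.16. Model 3 was the lowest sample for 43 of 102 C/D box snoRNAs (42.2%) and for 31 of 160 spliceosomal snRNA genes (19.4%). C/D box snoRNAs had a median log2 difference of -0.52 in model 3 and of 0.18 in control 3. The other 2 models did not share this, at 0.06 and 0.13. The part of RNA quality or fragment size in it was not tested, and the total number of bases of model 3 (5.84 Gb) was inside the range of the others.

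**Figure D4:**
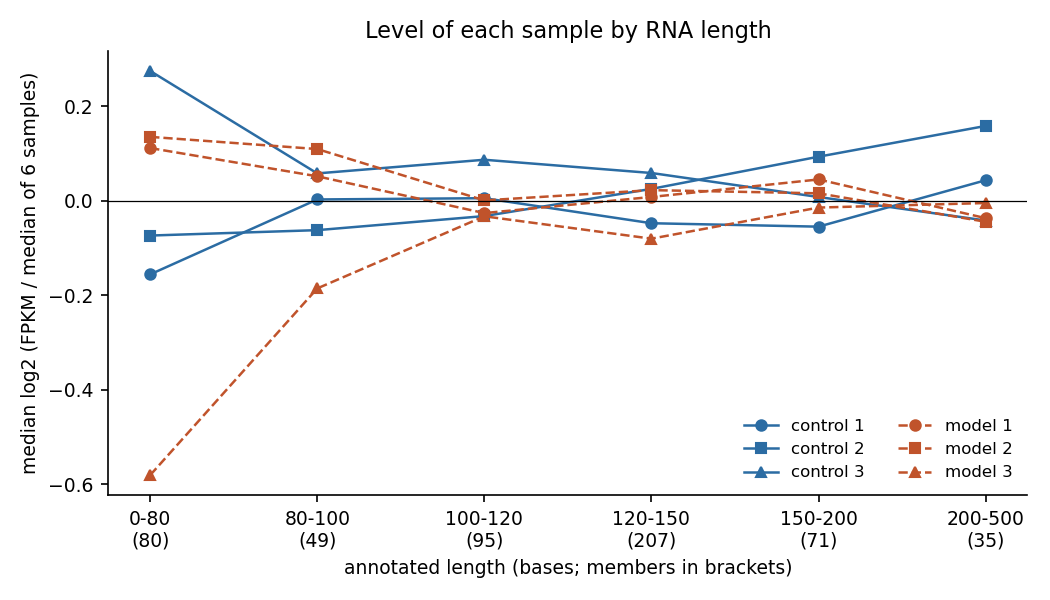
Median over genes of the log2 ratio of each sample's FPKM to the median of the 6 samples (y axis), in 6 length ranges (x axis, with the number of genes in each), for 3 controls (solid lines) and 3 models (dashed lines). Model 3 is at -0.58 for RNAs of up to 80 bases and between -0.08 and 0 in the ranges over 100 bases.

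Clusters of snoRNA genes were read in the same way. Members at most 10000 bases apart formed 10 clusters of 5 or more genes, and the sum of 7 of them was lowest in model 3. The other 3, of SNORD116 (2 clusters) and of SNORD113 and SNORD114, summed to at most 4.03 FPKM in any sample. None of their genes was lowest in model 3 alone, but several were at 0 both there and in other samples. The largest C/D box cluster that was above 10 FPKM in sum lay within chr13:78852741-78855688 and holds 10 RNAs, among them SNORD24, SNORD44, SNORD47, SNORD74, SNORD77, SNORD79 and SNORD81. In sum it was at 45.7, 53.8 and 67.2 FPKM in the controls and 52.8, 51.7 and 21.5 FPKM in the models. All 10 genes were lowest in model 3, and the log2 ratio of the sum was -0.40 with model 3 and -0.09 without it. SNORD44 passed both thresholds, at 3.58, 6.13 and 5.04 FPKM in the controls and 3.13, 2.17 and 1.62 FPKM in the models (limma, unadjusted p = 0.0142, adjusted p = 0.945). Its call was lost without model 3 and without control 2. The cluster of SNORD22 and SNORD25 to SNORD31 within chr1:224921637-224923957 was at 45.7, 48.9 and 67.4 FPKM in the controls and 48.0, 49.1 and 38.8 FPKM in the models. In the Taf1d cluster (chr8:13867302-13878073) the sum was lowest in model 3 at 21.1 FPKM and highest in control 3 at 42.0 FPKM. The cluster in Eif4a2, a translation initiation factor, did not follow the pattern as clearly, at 151 FPKM in model 3 and 174 to 211 FPKM in the others.

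Next, each gene was tested between the groups. Of the 1703 genes, 1263 were above 0 FPKM in at least 3 samples and entered a limma fit with all 64867 transcripts that met this rule. An unadjusted p of at most 0.05 with at least a 2-fold ratio was found for 63 of them (4.99%), where 2.98% of all transcripts tested passed. There were 22 higher in the models, with 1.22% of all transcripts passing in that direction, and 41 lower, with 1.76% passing. The split was 38 and 38 when model 3 was left out (6.02% called, against 3.25% of all transcripts). Of all transcripts called, the share lower in the models was 58.9% with model 3 and 53.1% without it. Leaving out other samples moved the split too, to 30 higher and 37 lower without model 1 and 25 higher and 62 lower without control 1. After adjustment over all transcripts none was below 0.05 (limma, smallest adjusted p = 0.177), where 0.0277% of all transcripts passed; 79 were at an unadjusted p of at most 0.05, or 6.25%, against 4.53% of all transcripts. The groups did not overlap for 115 genes (9.11%), against 10.4% of all transcripts. The median limma log2 difference was -0.01 over the 1263 genes and -0.02 over all transcripts.

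The calls were mostly of genes with few estimated reads, as were the genes tested. Reads were estimated as coverage times length over a read length of 150 bases. For genes shorter than a read this gives too few reads, so a floor of 10 estimated reads falls harder on them. Of the 63, 49 (77.8%) had a mean under 1 FPKM, as did 718 of the 1263 tested (56.8%). Fewer than 10 estimated reads per sample were behind 61 of the 63 (96.8%) and behind 939 of the tested genes (74.3%), with a median of 2.70 reads for the called and 3.90 for the tested genes. When the fit was limited to transcripts with at least 10 estimated reads, 3 of 324 small RNA genes passed (0.926%), against 2.77% of all transcripts. Among the 102 genes with a mean of at least 10 FPKM, 81 had group means within 1.5-fold of each other, and the median log2 ratio was -0.06. U6 had more calls than any other family, 18 of 267 tested copies (6.74%, where 2.98% of all transcripts passed), 13 of them lower in the models. U1 followed with 7 of 91 (7.69%), SNORA17 with 6 of 123 (4.88%) and U4 with 4 of 34 (11.8%).

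**Figure D5:**
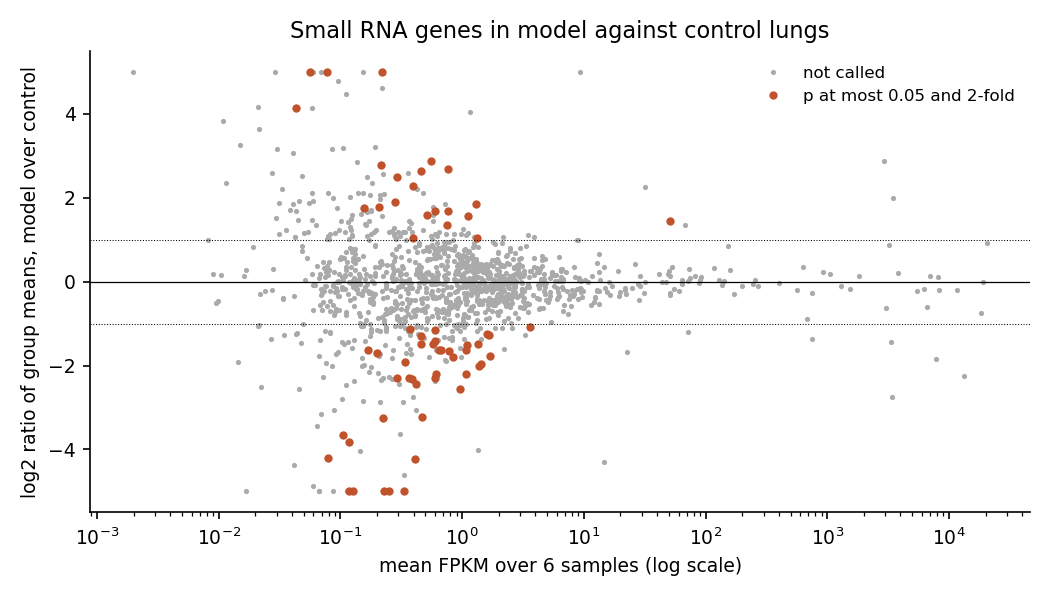
Log2 ratio of group mean FPKM, model over control (y axis), against mean FPKM over the 6 samples (x axis, log scale) for the 1263 genes tested, with the 63 genes at an unadjusted limma p of at most 0.05 and at least a 2-fold ratio in orange. Ratios past 5 log2 units, or against a group at 0, are drawn at 5 or -5. All but 14 of the orange points lie at a mean under 1 FPKM.

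Of the genes with a mean of at least 1 FPKM, those with the smallest p were of several families. Higher in the models, SNORA81 inside Eif4a2 was at 13.9, 12.4 and 12.2 FPKM in the controls and at 16.8, 17.1 and 15.2 FPKM in the models. All models were above all controls, but by a log2 ratio of only 0.35 (limma, unadjusted p = 0.0135, adjusted p = 0.945). Its host Eif4a2 had a log2 difference of -0.29 in the models (limma, unadjusted p = 0.217). A SNORA26 copy in Myo1d was at 8.12, 5.88 and 3.67 FPKM in the controls and 10.9, 9.42 and 14.7 FPKM in the models (limma, unadjusted p = 0.0199). A U6 copy in Zfp445 was at 3.08, 2.20 and 1.84 FPKM in the controls and at 4.52, 3.50 and 4.86 FPKM in the models. A SNORA25 copy in Tanc2 passed both thresholds, from 0.569 ± 0.113 to 1.68 ± 0.789 FPKM (SD, n = 3 each; limma, unadjusted p = 0.0224), and its call was lost without control 1 and without control 2 (unadjusted limma p up to 0.0652). The fifth was a copy of the SNORD113 and SNORD114 family on chromosome 20, with means of 1.82 and 3.16 FPKM.

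Lower in the models, a U6atac copy in Rev3l (chr20:44819559-44819665) was at 2.03, 2.49 and 3.31 FPKM in the controls and at 0.837, 0.409 and 1.06 FPKM in the models. The groups were apart, by a log2 ratio of -1.76 (limma, unadjusted p = 0.00410, adjusted p = 0.778). A copy of the family RF00427 in G3bp2 was at 3.62, 3.54 and 4.09 FPKM in the controls and 1.85, 2.53 and 1.75 FPKM in the models (limma, unadjusted p = 0.00492). SNORA20 on chromosome 1 had a mean of 2.27 ± 0.229 FPKM in the controls and 0.577 ± 0.616 FPKM in the models (SD, n = 3 each; limma, unadjusted p = 0.00904). A pair of SNORA17 copies, on chromosomes 2 and 8, had log2 ratios of -2.19 and -1.50. The calls of the U6atac, SNORA20 and both SNORA17 copies held when any single sample was left out, but each had fewer than 10 estimated reads per sample. Of the 6 SNORA17 copies called, 4 were lower and 2 higher in the models. A higher copy, on chromosome 17, had means of 0.569 FPKM in the controls and 2.05 FPKM in the models (log2 ratio 1.85).

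The smallest p of all belonged to genes that were barely detected. A U6 copy on chromosome 8 (chr8:68024817-68024923) was at 0.247, 0.278 and 0.237 FPKM in the controls and is listed at 0 in all models (limma, unadjusted p = 2.0e-04, adjusted p = 0.177). SNORD57, inside Nop56, whose protein is part of the C/D snoRNP, was at 0.599, 0.897 and 0.839 FPKM in the controls and at 0.124, 0 and 0 FPKM in the models. The other 4 snoRNAs in Nop56 did not pass the thresholds, and SNORD56 was at 1.73 to 2.92 FPKM in all samples. SNORA35, inside the serotonin receptor gene Htr2c, is listed at 0 in the controls and was at 0.646, 0.324 and 0.351 FPKM in the models. The choice of these genes was made with their values in view.

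The proteins that bind or make these RNAs were read from the same table. The 12 lists, with 120 genes that could be tested, covered the Sm and LSm rings, the snRNP proteins, the snoRNP core, the signal recognition particle, Ro and La, RNase P and MRP, the vault, telomerase, 5S binding, the snRNA and RNA polymerase III factors, Integrator and the snoRNA hosts. None of the 120 genes passed both thresholds, where 1.82% of 20405 genes passed; by limma, 7 were at an unadjusted p of at most 0.05 (5.83%), against 4.36% of all genes. The smallest p was that of Ncl, nucleolin, an rRNA processing protein whose gene hosts snoRNAs. It was at 9.51, 9.58 and 9.79 FPKM in the controls and at 7.75, 7.81 and 6.60 FPKM in the models, lower in all of them (limma log2 difference -0.35 ± 0.078 SE, unadjusted p = 0.00405, adjusted p = 0.950). Snrpd2, of the Sm ring, was at 10.6, 8.77 and 9.46 FPKM in the controls and 11.2, 12.5 and 12.7 FPKM in the models (limma, unadjusted p = 0.0127), and Lsm6 of the LSm ring had a log2 difference of -0.52. Sf3b1, the U2 snRNP protein that holds the branch point, had a log2 difference of -0.21 (limma, unadjusted p = 0.0277). Nhp2 of the H/ACA core and Pop7 of RNase P and MRP had log2 differences of 0.36 and 0.31. In the lists of the signal recognition particle, Ro and La, vault, telomerase, 5S binding, polymerase III factors and Integrator, no gene was at an unadjusted limma p of at most 0.05. Their smallest p were those of Srp9 (0.0651), Trove2 (0.197), Mvp (0.400), Dkc1 (0.464), Rpl5 (0.771), Brf2 (0.0903) and Ints12 (0.298), all unadjusted and from limma.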

How the data were processed

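The authors trimmed the paired reads, mapped them with Bowtie2 and TopHat2 (HISAT2 is also named in the submitters' processing notes), assembled transcripts with StringTie and deposited FPKM and mean per-base coverage for each transcript in each of 6 lung samples. The genome build and the treatment of reads that match several places are not given in the sources used here, and coordinates are those of the table. The deposited coverage signal served to estimate reads, which are understated for genes shorter than a read. The circRNA table was not used here. Columns in the table that could not be tied to a sample numbered 0.

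Members were the Ensembl transcripts named by an Rfam accession other than 7SK. The members and lists were chosen with earlier results of these data known. Family names and classes were assigned by hand from the accessions. Transcripts above 0 FPKM in at least 3 of 6 samples were fitted with limma 3.58.1 (R 4.3.3) on log2(FPKM + 1), the prior variance following the mean level, and p-values were adjusted over all transcripts tested by Benjamini-Hochberg. Sums were compared by exact two-sided permutation tests. Gene FPKM of protein partners were means over transcripts weighted by length, and a log2 difference from limma is on the log2(FPKM + 1) scale, which understates the change of low genes. Host genes were spliced Ensembl transcripts of another name spanning a member on the same strand.

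Named were 23 fixed families, of which 1 was not found, the 3 highest families of each class, the highest copy of each, and the 5 genes with the smallest p in each direction at a mean of at least 1 FPKM. For the partners, the gene with the smallest p of each list was named. Each library is from a separate rat. Alternatives were other pseudocounts, filters, scalings, no trend, the replicate number as a block, and each sample left out once. Same-numbered samples did not deviate together (correlations of -0.042 to 0.050). The fit was tested on simulated data, drawn only for transcripts with a mean of at least 1 FPKM. That test does not cover genes under this level, where most of the calls lie. Python 3.11.15, pandas 2.3.3 and numpy 2.4.6 were used.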

Additional observations from a re-analysis of the deposited data

How the results depend on the processing

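The count of 63 genes past both thresholds (4.99% of those tested, against 2.98% of all transcripts) was 16 with a mean FPKM of at least 1 (2.94% against 2.39%) and 3 with at least 10 estimated reads (0.926% against 2.77%), where fewer genes were tested. It was 115 as groups that do not overlap (9.11% against 10.4%), and 62 (4.91% against 3.33%) to 87 (6.89% against 3.90%, without control 1) with a sample left out. The count at an adjusted p below 0.05 was 0 to 1 and that of partner genes past the thresholds 0 to 1 with a sample left out. With the replicate number as a block, 57 genes passed both thresholds (4.51% against 3.00%) and 0 an adjusted p of 0.05, and the class sums had log2 ratios from -0.31 (spliceosomal) to 0.22 (Y RNA). The labels pair the samples only by number. Limited to copies with an Ensembl gene identifier, the log2 ratios were 0.20 for 7SL RNA, 0.47 for C/D box, -0.70 for small Cajal body RNA and -0.42 for other RNAs; the cause was not tested. Without RNase MRP RNA the other RNAs were at 0.26. With assembled transcripts of the same name, added after seeing the data, rRNA was at 0.67. With a sample left out, the log2 ratios ranged from -0.46 to -0.10 for all members, -0.58 to -0.13 for spliceosomal RNAs, -0.24 to -0.01 for 7SL RNA, -0.17 to -0.10 for C/D box, -0.14 to 0.08 for H/ACA box, -0.05 to 0.17 for small Cajal body RNA, -0.11 to 0.36 for Y RNA, -0.18 to 0.12 for rRNA and -0.18 to -0.09 for other RNAs. The sign changed in 60 of 467 class and family values and in 32 of 903 values of named genes. Median-ratio and other scalings moved the median of all transcripts by under 0.1 log2 units. Depth limits most genes: the median gene had 1.86 estimated reads per sample, an estimate that is too low for genes shorter than a read.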

Other observations

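Assembled transcripts that carry the 5.8S rRNA name, and are no Ensembl genes, summed over 87 entries to 6900.4, 8697 and 8038 FPKM in the controls and to 10426, 12257 and 14864 FPKM in the models. The groups were apart (log2 ratio 0.67, exact permutation p = 0.1, the smallest possible), while the 8 Ensembl copies of 5.8S were at 0.933 to 2.24 FPKM in sum. All assembled transcripts named after a family of small RNA, 268 in number, summed to 20056 to 25684 FPKM in the controls and 25116 to 34017 FPKM in the models, with overlapping groups. These values were looked at after the data were seen, and the amount of rRNA left in each library was not tested.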
